A study of Mus musculus with 9 samples.

Results

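Collagens are the triple-helical proteins of the extracellular matrix, and their genes were followed here through RNA from the nuclei of pyramidal cells, the excitatory output neurons of the mouse hippocampus. The members were every gene symbol of the deposited table made of "Col", a type number, "a" and a chain number, which gave 43 genes of 31052. Nuclei came from wild-type (WT) mice whose cells had been imaged in vivo with 2-photon microscopy during spatial navigation, classed as place cells, which fire at particular places, or silent cells, and phototagged for collection. There were 5 place libraries (place 1 to place 5) and 4 silent libraries (silent 1 to silent 4), numbered in the order of deposition, made from polyadenylated RNA by a low-input SMART-Seq method. The labels give no age, sex or strain, and each title carries its own mouse number without saying whether that number is an animal, so p-values measure the spread between these libraries. Genes were compared with limma on log2(RPM + 1), where RPM is recovered reads per 1000000 of a library's total, and a gene was said to pass at an adjusted p under 0.05.

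A collagen molecule is built from 3 chains that wind around each other, and the chain genes are sorted by what the molecules assemble into. Fibrillar collagens form the banded fibrils of connective tissue, basement membrane (type IV) collagens form sheets under vessels and around the meninges, and fibril-associated collagens decorate fibrils. Transmembrane collagens stay anchored in the cell surface, multiplexins carry cleavable C-terminal domains, and type VI chains make beaded filaments. In brain, most collagen is laid down by vascular and meningeal cells, while neurons make a restricted set of chains, among them the transmembrane collagen XXV and the fibril-associated collagen XIX. Members of one class can share stretches of sequence, and the strand setting of the authors' counting is not given in the sources used here, so reads shared with an overlapping gene on the other strand cannot be told apart.

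Library depth, in units of 1000000 recovered reads, ran from 14.0 (silent 1) to 22.3 (silent 4), so that a count of 0 allowed up to 0.135 to 0.214 RPM (3 reads, counting error only). A place library held reads of 18600 ± 1935 genes (mean ± SD, n = 5) and a silent library of 16085 ± 1607 (n = 4). Pyramidal markers were abundant in every library, with the kinase gene Camk2a at 805 to 1424 RPM and the AMPA receptor gene Gria1 at 1298 to 1787 RPM. Place 3 stood apart: its summed astrocyte markers reached 2445 RPM against 174 to 485 in the other libraries, and its CA1 marker Wfs1 was 30.4 RPM against 102.5 to 206. The Y-linked gene Eif2s3y was at 353 to 784 RPM in all 4 silent libraries and place 1, and without reads in the other 4 place libraries. Presence of Y-linked transcripts and class of the cells therefore cannot be told apart except through place 1.

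Stretches around the gene starts are given for the members whose patterns the results turn on. Col4a1 and Col4a2, the collagens highest per length, lie head to head on chromosome 8, and their RefSeq starts in GRCm38.p6 are 21 bases apart with transcripts running in opposite directions, so that both first exons share 22 bases. These are the capitals in the 30 bases of chr8:11312801-11312830, plus strand.
Col4a1 and Col4a2: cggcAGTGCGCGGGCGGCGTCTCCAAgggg
The 250 bases before the start are shown for Col11a1 (chr3:114030290-114030539, plus strand), a fibrillar chain with reads in every library, and for Col1a2 (chr6:4505368-4505617, plus strand) and Col3a1 (chr1:45311288-45311537, plus strand), fibrillar chains concentrated in a few libraries. Capitals mark the letters of 3 common promoter motifs on either strand, with no overlap between them: the TATA box (TATAAA), the CCAAT box (searched as these 5 letters) and the GC box (GGGCGG).
Col11a1: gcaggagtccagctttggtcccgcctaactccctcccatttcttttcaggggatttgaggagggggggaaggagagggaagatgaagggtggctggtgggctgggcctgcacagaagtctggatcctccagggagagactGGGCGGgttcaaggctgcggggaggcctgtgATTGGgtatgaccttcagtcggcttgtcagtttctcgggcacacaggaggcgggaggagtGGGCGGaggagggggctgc
Col1a2: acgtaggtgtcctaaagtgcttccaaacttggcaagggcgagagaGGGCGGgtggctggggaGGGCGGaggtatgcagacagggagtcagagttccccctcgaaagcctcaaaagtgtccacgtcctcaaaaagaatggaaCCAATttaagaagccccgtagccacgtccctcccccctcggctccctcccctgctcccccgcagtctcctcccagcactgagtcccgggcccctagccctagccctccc
Col3a1: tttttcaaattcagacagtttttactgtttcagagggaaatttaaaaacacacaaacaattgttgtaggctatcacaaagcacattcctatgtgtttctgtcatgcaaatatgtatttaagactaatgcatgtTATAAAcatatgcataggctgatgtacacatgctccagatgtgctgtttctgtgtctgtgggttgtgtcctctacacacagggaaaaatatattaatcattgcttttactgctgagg
Col11a1 and Col1a2 each held the CCAAT box once and the GC box in 2 places, and Col3a1 held the TATA box once. Over all 32851 RefSeq promoters of this length, 33.85% held the CCAAT box, 32.7% the GC box and 12.4% the TATA box.

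All 43 members had a read in at least 1 library, and 37 reached 1 RPM somewhere. Only 7 members were at 1 RPM or more in all 9 libraries: Col4a1, Col4a2, Col11a1, Col25a1, Col5a1, Col11a2 and Col20a1. That is 16.3% of the collagens, against 23.9% of all genes. The libraries are bulk samples, in which fewer cells of a type and less RNA per cell cannot be told apart. A further 5 members (Col6a4, Col7a1, Col16a1, Col19a1 and Col2a1) reached it in 5 to 7 libraries, 20 in 2 to 4 libraries, and 5 in a single library. At the limit itself, Col10a1 peaked just under it at 0.928 RPM in silent 1, and Col8a2 stood just under it at 0.991 in place 2. The map of all members shows this split between a few continuous rows and many scattered ones.

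**Figure D1:**
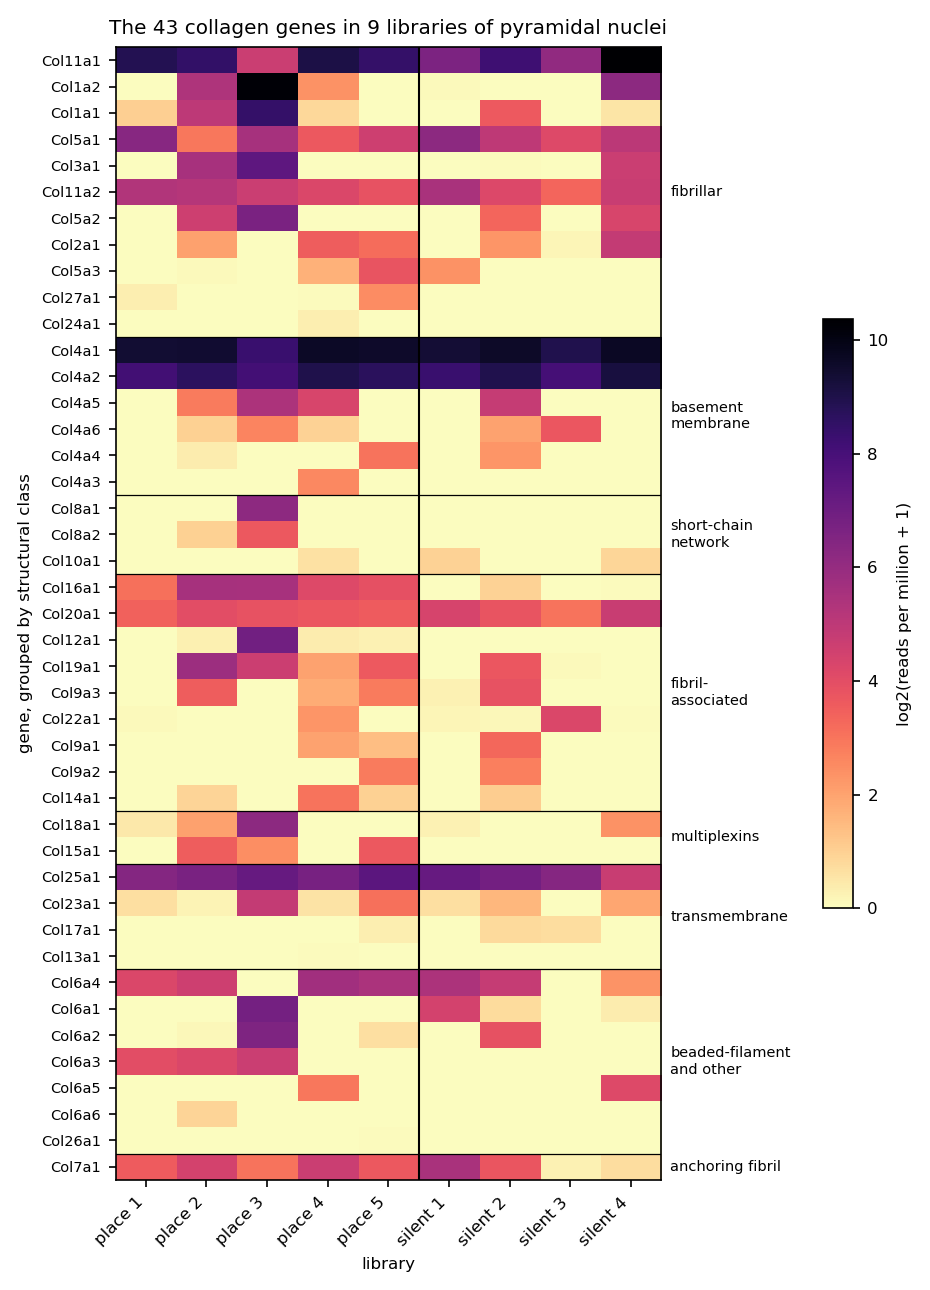
Each cell is the log2(RPM + 1) of 1 collagen gene (vertical axis, grouped by structural class) in 1 library (horizontal axis, 5 place libraries left of the line and 4 silent ones right of it). Col4a1, Col4a2, Col11a1, Col25a1, Col5a1, Col11a2 and Col20a1 are filled in all 9 libraries, and place 3 holds the highest value of 13 members.

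Col4a1, which encodes the main chain of the basement membrane network, was at 678, 680, 319, 786 and 741 RPM in place 1 to 5 and at 647, 779, 495 and 807 RPM in silent 1 to 4. Its partner chain Col4a2 was at 277, 398, 270, 501 and 410 RPM in place and at 323, 490, 263 and 580 RPM in silent libraries. Both genes were high in every library, place 3 and silent 3 were the lowest for both, and the groups overlapped. Per kilobase of exon, Col4a1 averaged 88.3 RPM and Col4a2 58.9 RPM, ranks 244 and 527 of the 28127 genes with an exon length. The ratio of Col4a1 to Col4a2 per kilobase averaged 1.55 ± 0.41 over place (SD, n = 5) and 1.52 ± 0.25 over silent libraries (SD, n = 4).

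Vascular markers were low beside those levels. Of the 6 endothelial markers measured, Cldn5, a tight junction protein, was at most 1.11 RPM in any library, Flt1, a VEGF receptor, at most 1.96 and Pecam1, an adhesion molecule, at most 2.25. Tek, the angiopoietin receptor, reached 22.6 RPM in place 1 and 1 RPM or more in 5 libraries, and Ly6c1 reached 4.32 RPM in place 1. The summed endothelial markers ran from 7.35 to 42.3 RPM in place and from 0.214 to 5.92 RPM in silent libraries, the top value being almost all Cdh5 in place 3 (40.4 RPM, without reads elsewhere). The 7 pericyte and smooth muscle markers summed to 0 to 20.4 RPM in place and 0 to 9.05 RPM in silent libraries. In silent 1, where the endothelial markers summed to 0.214 RPM and pericyte markers had no reads, Col4a1 was at 647 RPM. The 6 vascular and leptomeningeal fibroblast markers measured summed to 263 RPM in that library. Almost all of this sum was Ptgds (248 RPM), with Foxc1 at 15.1 RPM and no reads of Dcn, Lum, Fbln1 or Aldh1a2. The part of vascular or fibroblast nuclei in the Col4a1 and Col4a2 reads was not tested in any library.

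The other type IV chains were sparse. Col4a5 and Col4a6, a second head-to-head pair on the X chromosome with RefSeq starts 1343 bases apart, reached 41.6 and 5.24 RPM in place 3. Col4a5 had reads in 4 libraries. Col4a6 was highest in silent 3 at 12.0 RPM, where Col4a5 had no reads. Col4a3 and Col4a4, whose chains assemble with that of Col4a5 in kidney and other basement membranes, were never found together: Col4a3 had reads in place 4 alone (110 reads, 5.02 RPM) and Col4a4 in place 2, place 5 and silent 2 (0.292, 7.08 and 3.85 RPM).

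Among the fibrillar chains, Col11a1, Col11a2 and Col5a1 were present in every library. Col11a1, a minor chain that sets fibril diameter, was at 466, 361, 24.7, 526 and 352 RPM in place 1 to 5 and at 98.8, 291, 68.6 and 1332 RPM in silent 1 to 4. The silent libraries thus spanned the widest range, with silent 4 highest of all 9, and place 3 was lowest. Its partner Col11a2 varied less, at 38.6, 36.3, 24.9, 17.8 and 13.2 RPM in place and at 44.6, 17.2, 9.27 and 25.3 RPM in silent libraries. Col5a1, a chain that starts fibril assembly, was at 80.2, 6.71, 46.5, 11.6 and 23.3 RPM in place and 74.1, 29.98, 17.0 and 32.3 RPM in silent libraries. Col2a1, the cartilage fibril chain, was at 3.09, 10.8 and 8.09 RPM in place 2, 4 and 5 and at 3.95, 0.123 and 27.99 RPM in silent 2, 3 and 4, with no reads in the other 3 libraries.

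Col25a1 encodes a neuronal transmembrane collagen found in amyloid plaques. It was at 85.9, 103, 147, 107 and 177 RPM in place 1 to 5 and at 145, 116, 81.9 and 25.7 RPM in silent 1 to 4. Silent 4 was lowest, the other 8 libraries lay within 81.9 to 177 RPM, and the groups overlapped. Col20a1, a fibril-associated collagen, was the steadiest of the lower members, at 9.75, 14.9, 13.3, 11.9 and 10.96 RPM in place 1 to 5 and at 19.8, 12.7, 7.18 and 25.1 RPM in silent 1 to 4. Of the other transmembrane collagens, Col23a1 had reads in 8 libraries with 27.8 RPM in place 3, while Col13a1 was a single read in place 4 and Col17a1 stayed at or below 0.749 RPM.

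Col7a1, the anchoring fibril chain of skin, had reads in all 9 libraries and was at 11, 20.99, 7.18, 24.9 and 11.7 RPM in place and at 43.8, 12.5, 0.184 and 0.628 RPM in silent libraries. Silent 1 was highest and silent 3 and silent 4 were under 1 RPM. Col6a4, a type VI chain, was at 17.9, 23.0, 0, 51.4 and 43.3 RPM in place and at 42.2, 26.8, 0 and 3.99 RPM in silent libraries. It had no reads in place 3, and neither had the type VI chains Col6a5 and Col6a6, whereas Col6a1, Col6a2 and Col6a3 were at their highest there. The plot of the 12 wider members by group shows these ranges side by side.

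**Figure D2:**
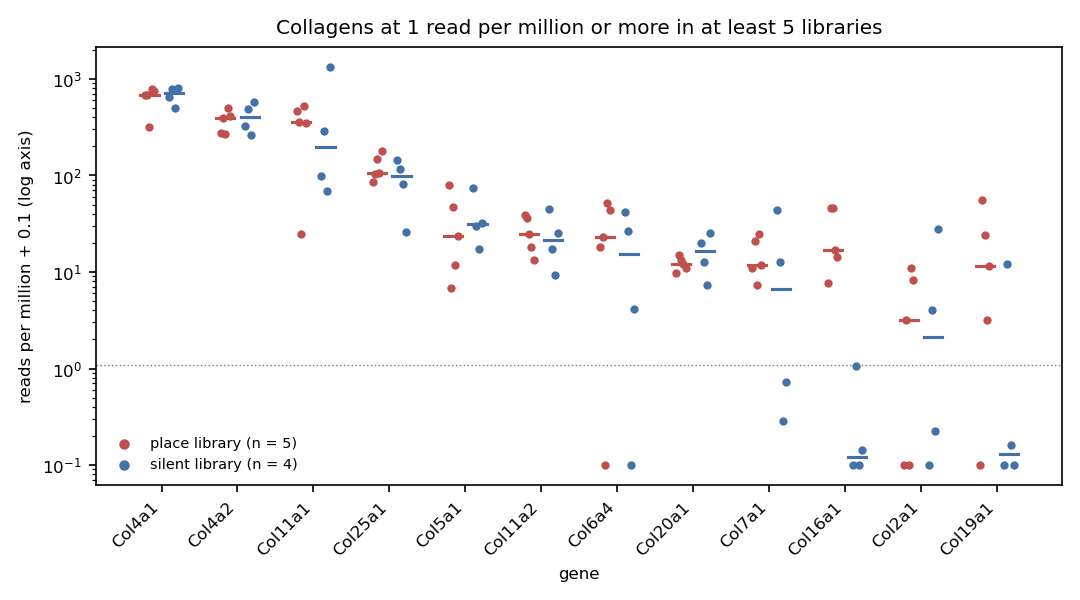
Each point is 1 library (red place, n = 5, blue silent, n = 4) and each bar the group median, in RPM + 0.1 on a log axis, for the 12 collagens at 1 RPM or more in at least 5 libraries. The dotted line marks 1 RPM and points at the bottom are libraries without reads; the groups overlap for every gene except Col16a1.

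Of the remaining fibrillar and network chains, Col1a1, Col1a2, Col3a1, Col5a2, Col8a1 and Col8a2 were highest in place 3. The others had no reads there: Col5a3 (12.7 RPM) and Col27a1 peaked in place 5, Col24a1 in place 4 and Col10a1 in silent 1. Col1a2, a chain of type I collagen, the main collagen of bone, skin and meninges, was at 0, 40.8, 1244, 4.11 and 0 RPM in place 1 to 5 and at 0.0714, 0, 0 and 73.3 RPM in silent 1 to 4. Col1a1, the other type I chain, was at 1.05, 30.8, 346, 0.776 and 0 RPM in place and 0, 11.3, 0 and 0.449 RPM in silent libraries. Col3a1, the type III chain, was at 45.5 and 169.6 RPM in place 2 and place 3, at 0.05 and 24.9 RPM in silent 2 and silent 4, and without reads in the other 5 libraries. The type I and type III chains did not always come together: in silent 4 Col1a2 and Col3a1 were present with Col1a1 at 0.449 RPM, and in silent 2 Col1a1 was present without Col1a2.

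In all, 13 members had their highest value in place 3, or 35.1% of the 37 collagens that reached 1 RPM somewhere, against 15.5% of all genes that did. After Col1a2, Col1a1 and Col3a1 these were Col12a1 (119 RPM), Col6a1 (112), Col5a2 (99.6), Col6a2 (94.2), Col18a1 (74.2), Col8a1 (71.3), Col4a5, Col23a1, Col6a3 and Col8a2. The 13 made up 72.3% of the collagen reads of place 3, 8.69% in place 2 and at most 4.16% in each of the other 7 libraries. The summed collagen level of place 3 was 3367 RPM, against 972 to 3002 RPM in the others, while its 7 widely present members summed to 845 RPM, the lowest of all 9. The members were grouped by this value after it was seen, so the counts are a description.

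Of the 64 measured genes in the 5 lists of collagen-handling genes described further on, 29 had their highest value in place 3 as well. Of all genes that reached 1 RPM somewhere, 15.55% did, while the 64 also include genes that never reached 1 RPM. Serpinh1, the collagen-specific chaperone, was at 73.4 RPM in place 3 and at most 0.269 RPM elsewhere, and Fkbp10, a prolyl isomerase of procollagen, at 30.9 and at most 0.0913. Lox, a cross-linking oxidase, was at 51.2 RPM in place 3, 10.9 in place 2 and without reads elsewhere. Nid1, a basement membrane linker, was at 122 RPM in place 3 and at most 3.20 elsewhere. These 4 genes were chosen after their values were seen. Others did not peak there: P4ha1, a prolyl 4-hydroxylase subunit, was lowest in place 3 at 81.8 RPM, and Pcolce2, an enhancer of propeptide removal, was at 27.2 RPM against 148 RPM in place 1. The 6 fibroblast markers measured summed to 854 RPM in place 3, with place 1 next at 474 RPM and the others between 25.3 and 263. Ptgds alone was at 441 RPM in place 3 and 381 RPM in place 1. Fbln1, a fibroblast matrix gene, was at 164.6 RPM in place 3 and 24.5 RPM in silent 4, the top libraries for Col1a2, and without reads in the other 7. Dcn, another, was also at 63.7 RPM in place 1, where Col1a2 had no reads. The summed astrocyte markers were highest in place 3 too, with the gap junction gene Gja1 at 590.5 RPM. The astrocyte marker Gfap went the other way, at 17.0 RPM in place 3 against 50.7 RPM in place 1 and 58.9 RPM in silent 3. The endothelial (42.3 RPM), pericyte and smooth muscle (20.4 RPM) and oligodendrocyte (3238 RPM) sums were highest in place 3 as well. Those of pyramidal neuron, interneuron, microglia, oligodendrocyte precursor, choroid plexus epithelium and Cajal-Retzius cell markers were highest in other libraries. Whether nuclei of other cell types contributed to the collagen reads of place 3 was not tested.

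**Figure D3:**
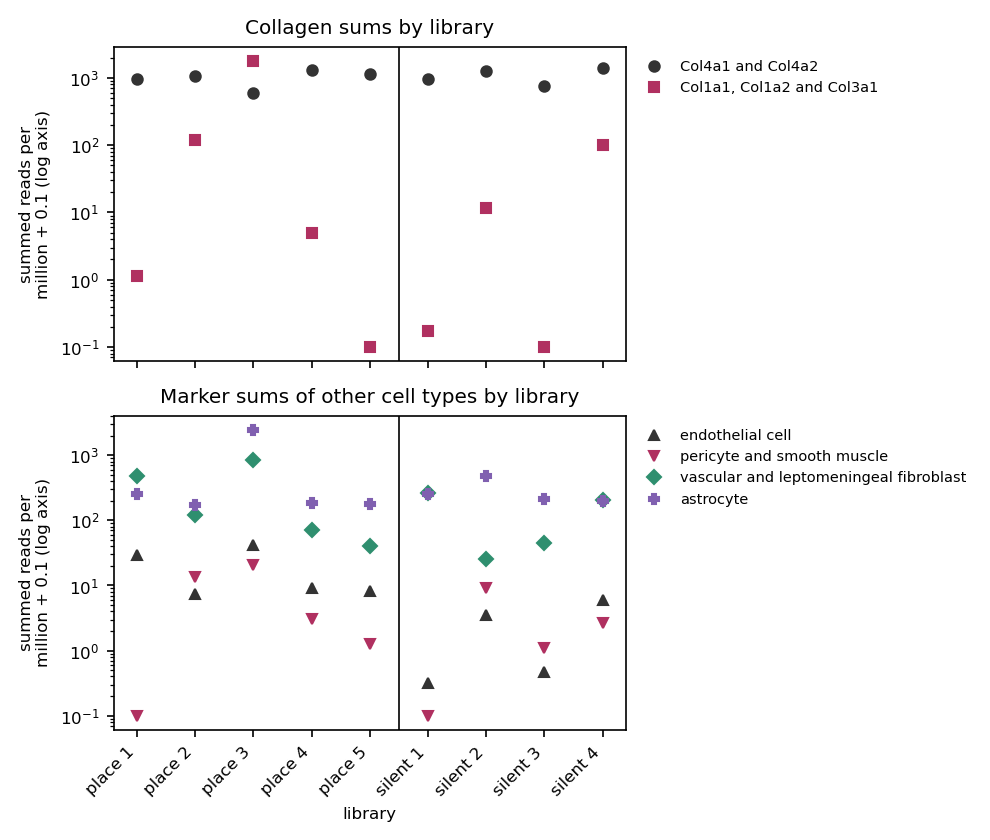
Summed RPM + 0.1 (log axis) of 2 collagen sets (top) and of the markers of 4 other cell types (bottom) in each library, place left of the line and silent right of it. Col4a1 and Col4a2 sum to 588.5 to 1386 RPM in all libraries, whereas Col1a1, Col1a2 and Col3a1 run from 0 to 1760 RPM and peak in place 3. The sums of all 4 marker sets drawn are highest in place 3 as well.

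Of the 5 collagens at 1 RPM or more in exactly 1 library, 3 were in place 3: Col12a1, a fibril-associated chain (2266 reads, next highest 7 reads in place 4), Col8a1, a short-chain network chain of vessels and cornea (1359 reads, none elsewhere), and its partner Col8a2 (221 reads, next highest 17 reads in place 2). Col4a3 in place 4 and Col27a1 in place 5 (86 reads, 4.58 RPM, next highest 4 reads in place 1) were the others. Genes at 1 RPM or more in exactly 1 library made up 11.6% of collagens and 13.7% of all genes, and place 3 held 13.6% of those genes. Without silent 2, the count of single-library collagens was 8. Counted by reads, 6 members were found in a single library, Col8a1 and Col4a3 among them. The others were Col24a1 (6 reads), Col13a1 and Col26a1 (1 read each) in place 4 or place 5 and Col6a6 (15 reads) in place 2, all under 1 RPM.

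Place and silent libraries were then compared, which asks whether the functional class of the cells goes with collagen expression. Of 14140 genes tested, 0% passed in either direction (smallest limma adjusted p = 0.648), with 585 genes (4.14%) at an unadjusted p under 0.05 and higher in place and 188 (1.33%) lower. Of the 43 collagens 18 entered the test, and 0 passed. The other 25 were under 1 RPM in at least 6 libraries and were not tested. Of the 18, 13 had a positive fold and the median log2 fold was 0.62, beside 57.3% positive and a median of 0.13 over all genes tested.

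Col16a1, a fibril-associated collagen, was the 1 member with an unadjusted p under 0.05. It entered the test through place libraries alone, being at 1 RPM or more in 5 place and 0 silent libraries. It was at 7.53, 46.3, 45.5, 16.9 and 14.3 RPM in place 1 to 5 and at 0, 0.949, 0 and 0.0449 RPM in silent 1 to 4. Every place library was above every silent one, as was so for 1.22% of the genes tested, while silent 2 and silent 4 held 19 reads and 1 read. The place mean was 26.1 ± 18.4 RPM (SD, n = 5) and the silent mean 0.249 ± 0.468 RPM (SD, n = 4). The log2 fold was 4.20 ± 1.01 (SE; limma unadjusted p = 0.000558, adjusted p = 0.893), so it did not pass.

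Other measures are given beside the Col16a1 values, none of which passed the test. Place 1, which shares the Y-linked transcripts of the silent libraries, was lowest of the place libraries for Col16a1 but above all 4 silent ones. Without place 3 the log2 fold was 3.93 and without place 1 it was 4.54. Oligodendrocyte markers (10 of 10 measured) summed to 1378, 2015, 3238, 291 and 190 RPM in place 1 to 5. In silent libraries they summed to 120 to 540.5 RPM, so the sums of the groups overlapped. Of the 9 tested, 5 were at a limma unadjusted p under 0.05 and higher in place, beside 4.14% of all genes tested. Among these 5, Opalin entered the test through place libraries alone, being at most 0.0714 RPM in silent ones. The 6 fibroblast markers measured summed to 39.7 to 854 RPM in place and 25.3 to 263 RPM in silent libraries. Ptgds alone was at 39.6 to 441 RPM in place and 25.3 to 248 RPM in silent libraries. Of the 4 fibroblast markers tested, 3 had a positive and 1 a negative fold. Among them Dcn was at 0.106 to 115 RPM in place and without reads in silent libraries. Dcn thus entered the test through place libraries alone, as Col16a1 did. Foxc1, the marker with the negative fold (log2 fold -0.36), reached 103 RPM in place 3 and 84.3 RPM in silent 4. The part of these measures in the Col16a1 result was not tested.

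Col19a1, the fibril-associated collagen of hippocampal interneurons, had the next largest fold. It was at 0, 56.1, 23.9, 3.06 and 11.5 RPM in place and at 0, 12.0, 0.0614 and 0 RPM in silent libraries, a log2 fold of 2.28 with a 95% interval from -0.35 to 4.91. Place 2 was highest and place 1 had no reads, so the groups overlapped. The 8 interneuron markers, all measured, summed to 112, 234, 237, 75.8 and 183 RPM in place and to 98.9, 228, 812 and 89.9 RPM in silent libraries. Most of the silent 3 sum was Vip (645 RPM), which was at 8.75 RPM in place 2 and without reads elsewhere. Sst was at 108 RPM in silent 2. Of the markers that define inhibitory neurons, Gad1 was highest in place 3 (182 RPM) and place 2 (145 RPM). Gad2 was highest in place 5 (98.2 RPM) and without reads in place 1, 3 and 4, and Slc32a1 had reads in place 2, silent 2 and silent 3. The part of these cells in the Col19a1 values was not tested.

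The intervals of the widely present members included 0. Col4a1 had a log2 fold of -0.13 with a 95% interval from -0.67 to 0.41, and Col4a2 -0.13 from -0.70 to 0.45. These intervals leave room for differences of less than 1 log2 unit in either direction. Col25a1 had 0.62 from -0.31 to 1.56, and Col11a1 0.08 from -1.60 to 1.76. The interval of Col20a1 ran from -2.07 to 1.53 and that of Col5a1 from -2.07 to 1.12. In limma the variance of a gene is drawn towards that of genes at a similar level. The width of an interval is therefore not the spread of that gene alone, and Col20a1 varied less between libraries than Col11a1 did. Without place 3 the fold of Col4a1 was 0.10 and that of Col11a1 0.88, and without silent 4 that of Col25a1 was 0.10, that of Col11a1 0.93 and that of Col20a1 -0.02.

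**Figure D4:**
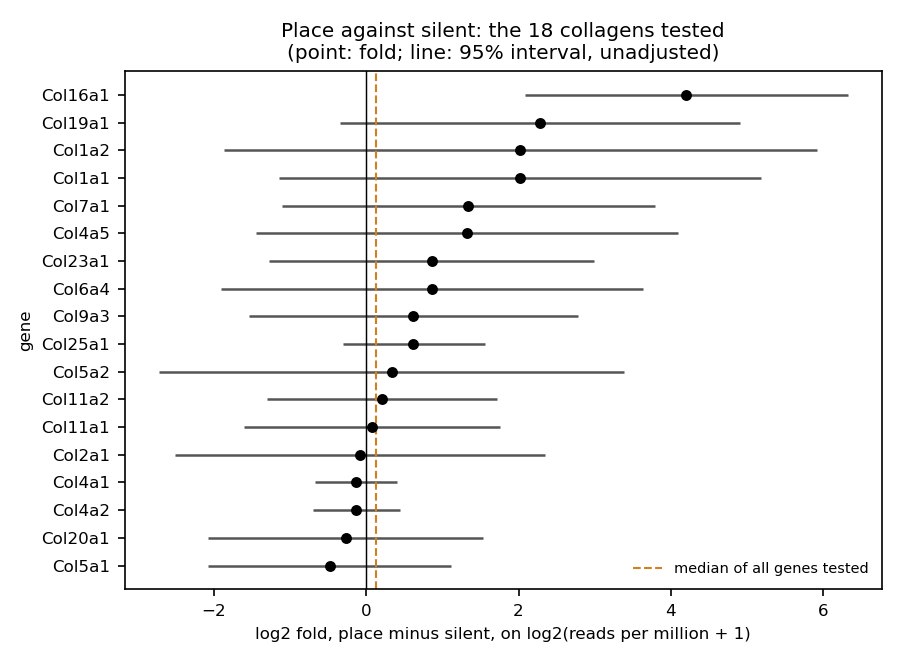
Points are log2 folds, place minus silent, on the log2(RPM + 1) scale and lines their 95% intervals from limma, not adjusted for the number of genes, for the 18 collagens tested. Only the interval of Col16a1 (2.09 to 6.32) lies off 0, and the dashed line is the median of all genes tested at 0.13.

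The number of collagens per library overlapped between the groups. Collagens at 1 RPM or more numbered 12, 21, 25, 21 and 21 in place 1 to 5 and 11, 22, 9 and 15 in silent 1 to 4, which averages 20 ± 4.8 (SD, n = 5) against 14.25 ± 5.74 (SD, n = 4). The difference of 5.75 is close to the spread between libraries of a group, and all genes at 1 RPM or more numbered 14405 ± 1290 and 12547 ± 1238 (SD). With reads in place libraries only there were 11 members (25.6%, beside 23.1% of all genes), and with reads in silent libraries only 0 (beside 8.03%). The place group held 1 more library, and the largest of the 11 were the place 3 genes Col12a1 and Col8a1 and then Col6a3, at 14.8, 17.8 and 25.01 RPM in place 1, 2 and 3. Without place 3, 10 of 42 members (23.8%, beside 21.2% of all genes) had reads in place libraries only and 1 (2.38%, beside 9.42%) in silent libraries only.

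The genes that make, cut, bind and break down collagen were counted by list. For folding and modification, 18 of 18 listed genes were measured and 9 were at 1 RPM or more in all libraries, among them the prolyl 4-hydroxylase subunits P4ha1 and P4ha2 and the prolyl 3-hydroxylase family member P3h3. Of 14 tested, 0 passed in either direction, and their median log2 fold was 0.27. P4ha1 was at 81.8 to 103 RPM in place and 91.9 to 158 RPM in silent libraries. Of the lysyl hydroxylases, Plod3 was at 20.7 to 65.95 and 46.4 to 117 RPM, Plod1 at 0 to 25.4 and 0 to 2.52 RPM and Plod2 at 0.456 to 106 and 0 to 42.8 RPM.

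For procollagen processing and cross-linking, 12 of 14 genes were measured and 6 tested, with 0 passing and a median log2 fold of 0.32. Bmp1, the protease that trims the C-terminal propeptide, was abundant in every library, at 206 to 467 RPM in place and 123 to 390 RPM in silent libraries. Adamts3, which trims the other end, was at 4.78, 18.7, 2.52, 0 and 7.13 RPM in place and at most 0.0999 RPM in silent libraries (limma adjusted p = 0.893). Like Col16a1, it entered the test through place libraries alone. Adamts2 and the oxidase Loxl3 were spread over both groups, with log2 folds of 0.44 and 0.45.

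All 11 listed collagen receptors were measured, 7 were tested and 0 passed. Itgb1, the shared beta chain of collagen-binding integrins, was at 57.2, 40.1, 156.6, 41.0 and 29.2 RPM in place and at 7.64, 28.2, 56.8 and 0 RPM in silent ones. Its log2 fold of 2.31 ± 0.97 (SE) had an adjusted p of 0.893 in limma. Its partners Itga11 and Itga2 stayed at or below 6.87 and 51.3 RPM, the latter peaking in silent 1, and the uptake receptor Mrc2 was at or below 19.5 RPM. Of the breakdown genes, 8 of 10 were measured, 4 were tested and 0 passed. The inhibitors Timp2, Timp3 and Timp4 had log2 folds of -0.35, -0.54 and 0.98, and the protease Ctsk -0.45.

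Of the basement membrane partners, 15 of 16 were measured and 4 tested, with 0 passing and a median log2 fold of 0.11. Agrn, the proteoglycan agrin, was at 392 to 707 RPM in place and 391 to 753.5 RPM in silent libraries, high in every library, as Col4a1 was. The laminin chains Lamb1 (13.1 to 71.3 RPM) and Lamc1 (26.0 to 81.9 RPM) were also in all 9 libraries. In contrast Hspg2, the proteoglycan perlecan, was at most 3.20 RPM. Sparc, a collagen-binding matrix protein, was at 394 RPM in place 3 and at most 54.7 RPM elsewhere.

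Promoter composition was read for the 34 members in the RefSeq table (GRCm38.p6). In the 250 bases before the start, the 7 members at 1 RPM or more in all libraries held a median of 18 CG dinucleotides (range 1 to 31), the other 27 a median of 10 (0 to 24) and all promoters a median of 6 (0 to 56). Col4a1 and Col4a2, which share their start region, held 31 and 26, and Col20a1, present in all libraries, held 1. The CCAAT box was found in 4 of the 7 and 8 of the 27, the TATA box in 1 and 4, and the GC box in 5 and 16. A match describes letters in this window and shows no binding.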

How the data were processed

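The authors deposited 1 table of normalized signal, with libraries in rows and genes in columns. Per the submitters' processing notes STAR, HTSeq and GRCm39 were used; of versions, annotation and strand setting it can only be said that they were not given in the sources used here. Values carried 1 factor per gene, a trimmed mean of M-values with Ezh2 as reference gene, and none per library. Solving for it gave whole reads (within 0.05) for 31044 of 31052 genes (99.97%) and all 43 collagens, 1 with its step shifted by up to 1%; the steps were tested on simulated data. A column that names no gene (unannotated transcripts) took 0.173 to 0.31% of reads and was left out.

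RPM are recovered reads per 1000000. Genes at 1 RPM or more in at least 4 libraries were tested with limma 3.58.1 (R 4.3.3) on log2(RPM + 1) with a trend, place minus silent, Benjamini-Hochberg over 14140 genes, threshold 0.05. The pseudocount lowers folds of low genes. The design had foreseen this test for recovered reads. Exon lengths came from GENCODE M21, promoters from RefSeq.

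Members and lists were chosen with earlier results of these data known. Values in every library are given for members at 1 RPM or more in at least 5 libraries or with an unadjusted p under 0.05, and single-library members with their 2 highest libraries; of other lists, the 4 tested genes with the smallest p are named. Scaling, pseudocount, filter, model, a covariate, detection limits and left-out libraries were alternatives. The labels name no molecular identifiers, so limits cover counting error only. Listed genes without a column were not analysed here.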

Additional observations from a re-analysis of the deposited data

Results flagged for a closer look

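Among the 12 collagens at 1 RPM or more in at least 5 libraries, 5 of 24 gene and group combinations held a library far from the rest of its group. The gap on the log2(RPM + 1) scale was one that chance passes in about 1 of 20 groups of normally distributed values. In 3 of them the library was place 3, the lowest of the place libraries. Col4a1 was at 319 RPM there, against 678 to 786 RPM in the other 4. Col11a1 was at 24.7 RPM against 352 to 526 RPM. Col6a4 was at 0 RPM against 17.9 to 51.4 RPM. The other 2 were silent 2, the highest of the silent libraries: Col16a1 at 0.949 RPM against at most 0.0449 RPM, and Col19a1 at 12.0 RPM against at most 0.0614 RPM. Silent 1 and silent 3 had no reads of Col16a1, and silent 1 and silent 4 none of Col19a1. With such ties the rate of 1 in 20 does not hold for these 2, and the Col16a1 value was itself under 1 RPM.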

How the results depend on the processing

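The count of collagens passing was 0 in all 20 alternatives (smallest adjusted p of a member 0.436), and that of all genes was 0 in 19. Leaving out 1 library gave 0 to 2 genes, the 2 being the Y-linked Ddx3y and Eif2s3y without place replicate 1. The fold of Col16a1 was positive in all 20 alternatives, from 2.35 with a pseudocount of 5 RPM to 8.57 on the deposited values with TMM scaling (adjusted p 0.436 to 0.973).

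Folds near 0 turned sign when libraries were left out, and the causes were not tested. With 1 left out, the fold of Col4a1 ran from -0.28 to 0.10 (positive without place 3), Col4a2 from -0.32 to 0.06 (positive without silent 4), Col11a2 from -0.15 to 0.57 (negative without silent 3) and Col11a1 from -0.49 (without silent 3) to 0.93, negative in 6 of the 9. Without both place 3 and silent 4, the libraries with the highest Col1a2, a setting chosen after seeing the data, Col4a1 was at 0.19, Col4a2 at 0.16, Col11a1 at 1.73 and Col25a1 at 0.03. With 1 left out, Col25a1 ran from 0.10 (without silent 4) to 0.92. Col11a1 was at -0.14 with voom. With genes detected as a covariate, Col11a1 was at -0.70 and Col5a1 at 1.02, and the median of all genes was -0.04. That median was 0.23 on deposited values.

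The 7 collagens counted in all libraries numbered 7 to 8 in all alternatives. Those in exactly 1 library numbered 10 at 5 RPM or more and 4 to 8 with 1 library left out. The difference in collagens per library ran from 4 to 8.33 with 1 library left out. The 2 planned count models were not run. No paired analysis was possible because replicate numbers follow the order of deposition and pair no libraries.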
